A study of Mus musculus with 8 samples.

Results

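The genes described here are the collagen chains, found as every row of the count files whose gene symbol was Col, a number, the letter a and a number. This gave 44 chains among 21859 genes, and all 44 were placed on the mouse genome GRCm38 through the GENCODE M21 annotation. The libraries were made from total RNA of whole aortas, 4 from ApoE-/- mice and 4 from wild-type (WT) C57BL/6 mice, all male, 40 weeks old and kept on a normal diet. ApoE-/- mice lack apolipoprotein E in every tissue and develop atherosclerosis. The mice were perfused with saline and each aorta gave 1 library, whose RNA comes from all layers of the wall and from any tissue left on it.

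Collagens are extracellular proteins in which 3 chains wind into a triple helix, and each chain is encoded by its own gene. Fibrillar collagens build the load-bearing fibrils of the vessel wall. FACIT collagens (fibril-associated collagens with interrupted triple helices) sit on the surface of those fibrils, and type IV collagens form the network of the basement membrane under endothelium and around smooth muscle cells. Type VI chains form beaded filaments. In an artery, smooth muscle cells and fibroblasts are the main producers of fibrillar collagen, which also forms the fibrous cap over an atherosclerotic plaque. By class, the 44 chains were 11 fibrillar, 9 FACIT, 6 type IV, 6 type VI, 3 short-chain network (types VIII and X), 2 multiplexin (types XV and XVIII), 4 transmembrane and 3 other chains. A list of 8 chains known from cartilage crossed these classes.

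Between 18375898 and 23940156 read pairs were counted on genes in a library, and the ApoE-/- libraries (23240995 or more) all lay above the WT libraries (21664598 or fewer). Values are given as CPM (counts per 1000000 counts on genes) after scaling by edgeR's TMM factors. Apoe, the targeted gene, lay between 14.7 and 36.3 CPM in ApoE-/- libraries and between 536 and 857 CPM in WT libraries, so all 8 libraries matched their genotype. ApoE-/- replicate 1 stood apart from the rest. The summed level of 8 sympathetic neuron markers was 4060 CPM in this library, 30.7 to 298 CPM in the other ApoE-/- mice and 191 to 711 CPM in WT mice. Its 12 smooth muscle markers summed to 5688 CPM, against 12560 to 23293 CPM in the other 7 libraries. Fewer cells of a type and less RNA per cell cannot be told apart in whole aortas. Values without this mouse are therefore given beside many of the results. Markers of macrophages, which fill plaques, summed to 537 to 2739 CPM in ApoE-/- mice and 307 to 434 CPM in WT mice.

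The comparison asked which collagen chains differed between aortas of atherosclerosis-prone ApoE-/- mice and WT mice. Fibrillar collagen RNA took a larger part of all collagen RNA in each ApoE-/- mouse than in any WT mouse, type IV collagen took a smaller part, and Col3a1 had the smallest edgeR p of all chains. The log2 fold change (ApoE-/- over WT) was positive for 32 of the 41 chains that passed the low-count filter. Across all 15077 tested genes 58.0% were positive. The median log2 fold change was 0.44 over the 41 chains and 0.05 over all tested genes. None of the 41 chains passed an adjusted p of 0.05 in the edgeR quasi-likelihood F test, in which 0.371% of all tested genes were called higher and 0.0929% lower. At an unadjusted p under 0.05, 8 chains were higher and 1 lower, against 7.19% and 4.17% of all genes. DESeq2, the tool named in the methods of the study, called 2 chains, Col3a1 higher and Col13a1 lower, where it called 2.84% of genes higher and 1.45% lower. Without ApoE-/- replicate 1, 35 of the 41 values were positive (50.8% of all tested genes), and edgeR called 5 chains higher (Col3a1, Col1a1, Col1a2, Col5a2 and Col14a1) and 2 lower (Col13a1 and Col28a1), against 2.75% and 1.16% of genes. The median over the 41 chains was then 0.43, beside 0.0046 over all tested genes. DESeq2 without that mouse called these 7 and also Col5a1, Col6a1, Col6a2, Col6a3 and Col23a1, all higher, which made 10 higher and 2 lower, against 5.18% and 4.00% of genes. Without any other single mouse edgeR called no chain, and only 0 to 17 of all tested genes. Without both ApoE-/- replicates 1 and 3, whose marker levels stand out below, it called 6 chains, Col1a1, Col3a1 and Col14a1 higher and Col11a1, Col13a1 and Col28a1 lower, against 2.42% and 2.97% of genes.

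The levels of all 8 mice were fully separated by genotype for 4 chains. Col3a1, Col16a1 and Col20a1 were higher in every ApoE-/- mouse than in every WT mouse, and Col13a1 was lower, where 5.41% of all tested genes were separated upward and 3.30% downward. The shares of the 41 chains were 7.32% and 2.44%, close to those of all genes. Without ApoE-/- replicate 1, 13 chains were separated upward and 2 downward, against 9.87% and 7.39% of genes. These counts use CPM scaled anew for the 7 libraries. They included all of Col6a1, Col6a2 and Col6a3, the chains that assemble together into type VI collagen, and Col4a1 and Col23a1. Col8a1 was among them only after that scaling, since with all 8 libraries scaled together ApoE-/- replicate 2 lay just below the highest WT mouse.

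**Figure D1:**
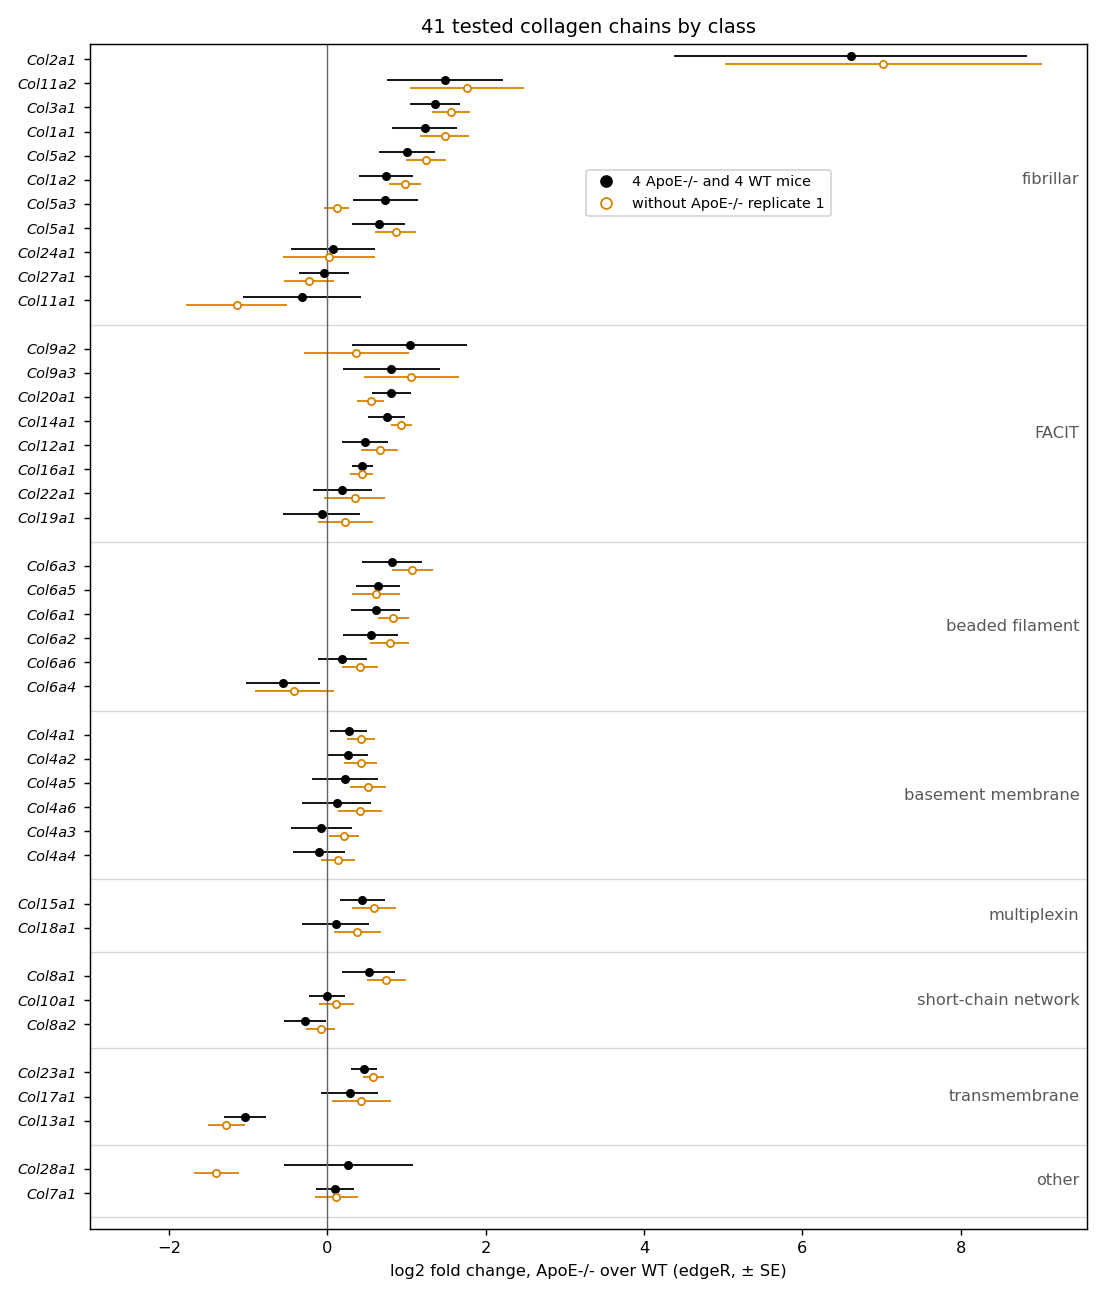
Log2 fold change of the 41 tested collagen chains (x axis, ApoE-/- over WT, edgeR, bars are SE), grouped by class, with all 8 mice (filled) and without ApoE-/- replicate 1 (open). The fibrillar, FACIT and type VI chains lie mostly right of 0, with class medians of 0.74, 0.61 and 0.58, the type IV chains have a median of 0.17 with all mice and 0.42 without that mouse, and Col28a1 changes sign when this mouse is left out.

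Col3a1 encodes the single chain of type III collagen, a fibrillar collagen of distensible tissues such as the arterial wall. It lies on chromosome 1 from 45311538 to 45349706 on the plus strand. Its level was 1484, 2151, 3797 and 3179 CPM in ApoE-/- replicates 1 to 4 and 997, 922, 1301 and 917 CPM in WT replicates 1 to 4. The lowest ApoE-/- value, in replicate 1, was thus still above the highest WT value. The group means were 2653 ± 1034 CPM (SD, n = 4) and 1034 ± 182 CPM (SD, n = 4), a log2 fold change of 1.36 with an SE of 0.32. The edgeR adjusted p was 0.107 with all mice and 0.0147 without ApoE-/- replicate 1, while DESeq2 gave 0.000774. DESeq2 called Col3a1 whichever 1 of the 8 mice was left out. The annotated gene Gm47302 overlaps Col3a1 on the same strand.

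Col13a1 encodes the chain of type XIII collagen, a transmembrane collagen known from the neuromuscular junction and from cell adhesion sites. It lies on chromosome 10 from 61838236 to 61979108 on the minus strand and was expressed at a low level. The ApoE-/- mice had 3.57, 1.71, 2.22 and 2.30 CPM and the WT mice 5.09, 5.24, 6.09 and 3.73 CPM, which rest on 39 to 88 and 78 to 112 read pairs. Replicate 1 was the highest of the ApoE-/- mice and came close to WT replicate 4. The ApoE-/- mean was 48.6% of the WT mean, at a log2 fold change of -1.04 with an SE of 0.27. The adjusted p was 0.138 in edgeR, 0.0264 in edgeR without ApoE-/- replicate 1 and 0.00895 in DESeq2. DESeq2 called Col13a1 in 4 of the 8 fits that leave out a single mouse, and the call was lost without ApoE-/- replicate 3 or without WT replicate 1, 2 or 3.

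The 250 bases before the start of Col3a1 and Col13a1 are shown because these are the chains called in opposite directions. They are written 5′ to 3′ on the strand of each gene (RefSeq, GRCm38.p6), at chr1:45311288-45311537 for Col3a1 and chr10:61979109-61979358 for Col13a1. Capitals mark any match, on either strand, to the TATA box, spelled TATAAA. The CAAT box, spelled CCAAT, and the GC box, spelled GGGCGG, were searched in the same way, and no matches overlap in either window.
Col3a1: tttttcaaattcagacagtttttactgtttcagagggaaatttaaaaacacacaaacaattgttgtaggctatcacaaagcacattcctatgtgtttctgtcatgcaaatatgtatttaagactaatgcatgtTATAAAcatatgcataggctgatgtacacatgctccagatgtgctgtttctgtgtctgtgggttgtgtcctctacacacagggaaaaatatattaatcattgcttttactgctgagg
Col13a1: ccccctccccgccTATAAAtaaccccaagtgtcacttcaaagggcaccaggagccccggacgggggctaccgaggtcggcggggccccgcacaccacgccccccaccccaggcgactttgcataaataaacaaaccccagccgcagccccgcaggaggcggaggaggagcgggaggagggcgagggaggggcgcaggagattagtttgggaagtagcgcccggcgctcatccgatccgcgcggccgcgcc
Each window holds 1 TATAAA on the strand of the gene, which starts at position -117 in Col3a1 and -237 in Col13a1, counted back from the transcript start, and neither window holds the other motifs. Among 32851 promoter windows of this length, 12.4% held the TATA box, 33.8% the CAAT box and 32.7% the GC box. For 35 of the 44 chains 38 windows were matched, of which 5, 13 and 22 held these motifs.

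The abundant fibrillar chains varied with Col3a1 from mouse to mouse, but ApoE-/- replicate 1 stayed at the WT level. Col1a1 and Col1a2 encode the chains of type I collagen, the main protein of stiff fibrils, and they and the type V chains below were picked after their values were seen. Col1a1 was at 604, 1055, 2538 and 1382 CPM in ApoE-/- mice and 621, 481, 736 and 536 CPM in WT mice. Here the log2 fold change was 1.23 with an SE of 0.41, with an edgeR adjusted p of 0.264 for all mice and 0.0439 without ApoE-/- replicate 1. Col1a2 was at 882, 1813, 2902 and 2346 CPM in ApoE-/- mice and 1188, 1118, 1370 and 1083 CPM in WT mice. ApoE-/- replicate 1 was the lowest of all 8 libraries, and the other 3 ApoE-/- mice were above every WT mouse. The edgeR adjusted p for Col1a2 was 0.482 with all mice and 0.0393 without that replicate. Col5a1 and Col5a2 encode chains of type V collagen, which starts the assembly of type I fibrils. Col5a2 was at 259, 465, 873 and 602 CPM in ApoE-/- mice and 245, 262, 364 and 221 CPM in WT mice, with an edgeR adjusted p of 0.293 and, without ApoE-/- replicate 1, 0.0394. Col5a1 spanned 299 to 910 CPM and 300 to 487 CPM, with a log2 fold change of 0.65 and an SE of 0.34, or 0.87 without ApoE-/- replicate 1 (adjusted p of 0.118 in edgeR and 0.0182 in DESeq2). Over single mice left out, the log2 fold change was 0.77 to 1.49 for Col1a1 and 0.50 to 0.99 for Col1a2. For Col5a2, Col5a1 and Col3a1 it was 0.70 to 1.25, 0.35 to 0.87 and 1.14 to 1.56. The highest edgeR adjusted p of these 5 chains were 0.566, 0.814, 0.624, 0.872 and 0.307, in the same order. ApoE-/- replicate 3 had the highest level of Col1a1, Col1a2, Col3a1, Col5a1 and Col5a2, and its collagen counts were 2.05% of all counts on genes. In the other ApoE-/- mice collagen took 0.775%, 1.32% and 1.37% of counts, and in WT mice 0.771% to 1.02%, so replicate 1 fell within the WT range.

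**Figure D2:**
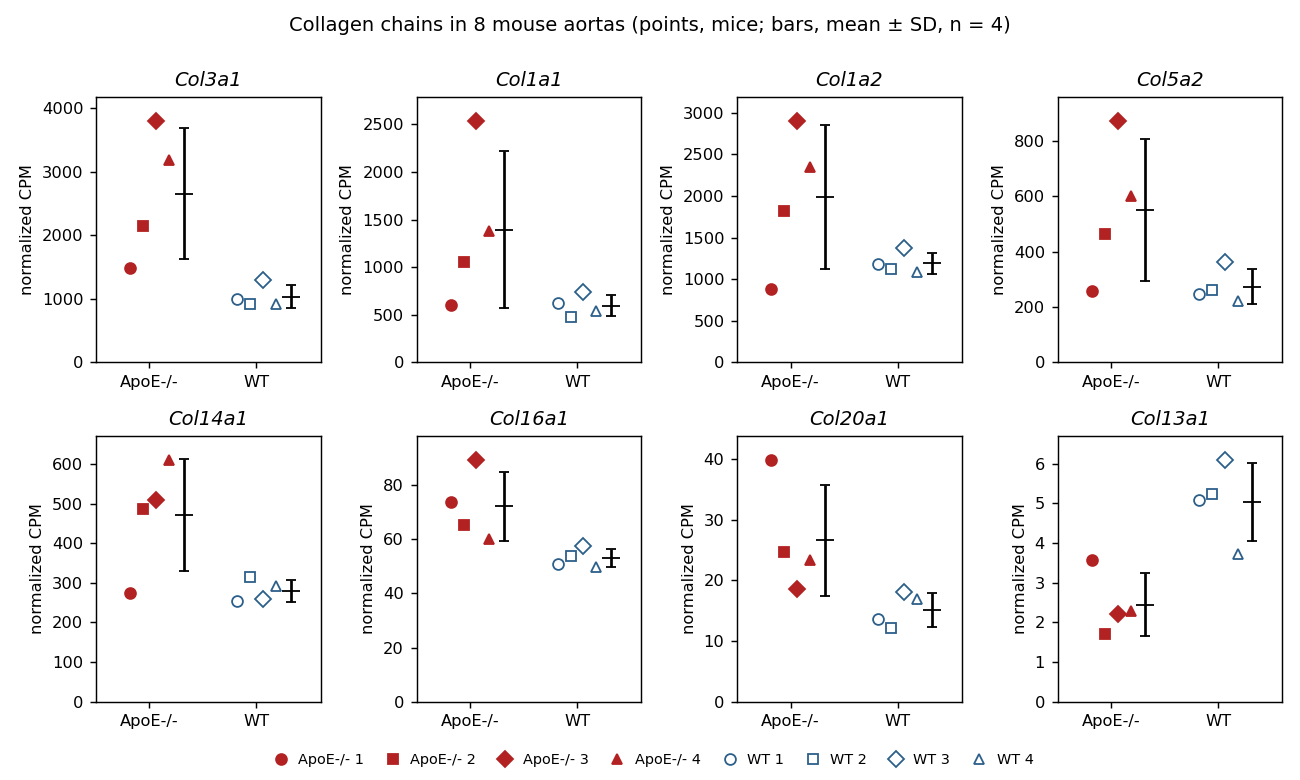
Normalized CPM (y axis, from 0) of 8 collagen chains in each mouse, with filled symbols for ApoE-/- and open symbols for WT, 1 symbol shape per replicate number, and mean ± SD (n = 4) in black. Col3a1, Col16a1 and Col20a1 are higher and Col13a1 lower in all 4 ApoE-/- mice, while ApoE-/- replicate 1 (circle) lies within or below the WT values of Col1a1, Col1a2, Col5a2 and Col14a1.

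The remaining fibrillar chains showed no such pattern. Col24a1, expressed in developing bone and eye, was at 0.437 to 3.22 CPM in ApoE-/- mice and 1.10 to 2.01 CPM in WT mice. Col27a1, a chain of cartilage fibrils, was at 107, 58.9, 103 and 39.7 CPM against 61.9, 90.7, 71.7 and 92.6 CPM, with a log2 fold change of -0.04. Col5a3, the third type V chain, was at 193 CPM in ApoE-/- replicate 1 and 45.8 to 74.6 CPM in the other 7 libraries. The log2 fold change of Col5a3 was 0.73 with that mouse and 0.12 without it.

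The share of each class within the collagen RNA of a mouse removes the total amount. Fibrillar chains made up 51.4%, 46.7%, 55.2% and 57.0% of the collagen counts in ApoE-/- mice and 40.8%, 42.4%, 42.2% and 41.6% in WT mice. Type IV chains made up 22.6%, 24.2%, 18.4% and 18.7% in ApoE-/- mice and 28.5%, 26.4%, 27.2% and 29.6% in WT mice. Neither set of shares overlapped between genotypes, and here ApoE-/- replicate 1 lay with the other ApoE-/- mice. Col1a1, Col1a2 and Col3a1 alone held 37.4% to 48.6% of collagen counts in ApoE-/- mice and 32.1% to 32.7% in WT mice. The type VI share was 10.7% to 13.3% and 11.9% to 13.0%, and the FACIT share 4.18% to 6.41% and 4.93% to 6.47%, both overlapping. The levels of the 6 type IV chains had a median log2 fold change of 0.17, so their lower share was not a lower level. Endothelial cells, which make type IV collagen, were marked by 12 genes. These summed to 1991, 2257, 2299 and 2913 CPM in ApoE-/- mice and 2851, 3363, 3220 and 3001 CPM in WT mice. Of these 12, 11 had a negative log2 fold change (42.0% of all tested genes), 6 were lower in every ApoE-/- mouse than in any WT mouse (3.30% of genes), and DESeq2 called 6 lower (1.45% of genes), Egfl7, Kdr and Robo4 among them. In edgeR none was called with all mice and 4 were called lower without ApoE-/- replicate 1. The part of endothelial content in the type IV share was not tested. Other measures of the libraries also did not overlap between genotypes. Mitochondrial genes took 2.84% to 5.16% of counts in ApoE-/- mice and 5.52% to 6.92% in WT mice, and 32.3% to 35.6% against 27.9% to 30.2% of all pairs were counted on genes. The 9 cardiac muscle markers summed to 160 to 345 CPM in ApoE-/- mice and 420 to 732 CPM in WT mice, with a negative log2 fold change for all 9 (42.0% of genes), and DESeq2 called 6 of them lower (1.45% of genes). The part of these measures in the shares was not tested. The shares are counts of pairs, in which a long transcript weighs more, they sum to a fixed total and were not tested.

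**Figure D3:**
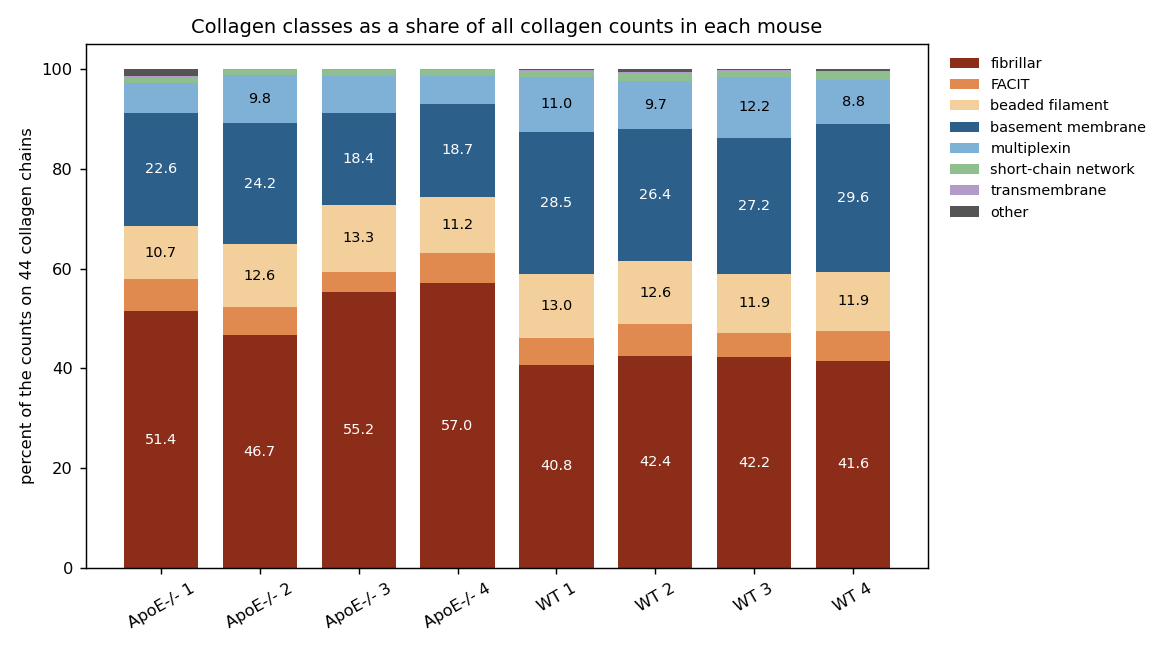
Share of each collagen class (percent of the counts on all 44 collagen chains, y axis) in each of the 8 mice, stacked by class. The fibrillar part (bottom) is 46.7% to 57.0% in the ApoE-/- mice and 40.8% to 42.4% in the WT mice, and the basement membrane part is 18.4% to 24.2% and 26.4% to 29.6%.

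Levels of different chains can be compared per length, as RPKM (CPM divided by the length of the exons in kilobases). By the union of exons Col4a1 was highest in WT mice (157 ± 19.8 RPKM, SD, n = 4), followed by Col4a2 (113 ± 19.1), Col18a1 (111 ± 33.3), Col3a1 (105 ± 18.5), Col1a2 (95.8 ± 10.3) and Col1a1 (90.5 ± 16.9). From Col4a2 on, each chain differed from the next in this order by less than the SD of either, but chains farther apart did not all do so, and Col4a2 was above Col1a1 in each of the 4 WT mice. In ApoE-/- mice Col3a1 was highest (270 ± 105 RPKM), followed by Col1a1 (212 ± 126), Col4a1 (189 ± 48.2) and Col1a2 (160 ± 69.2). Neighbours in this order again differed by less than the SD of either, while Col3a1 was above Col1a2 in each of the 4 ApoE-/- mice. With the longest transcript as the length, the same 6 chains ranked 1 to 6 in both genotypes and Col3a1 remained first in ApoE-/- mice. The order among the 6 in WT mice changed, with Col1a2 first at 223 RPKM and Col3a1 second at 186 RPKM. Col7a1, Col9a2, Col9a3, Col13a1, Col17a1, Col22a1, Col24a1 and Col6a4 were at 1.09 RPKM or less in both genotypes.

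Of all the chain ratios examined per length, only that of type I collagen was separated by genotype. The ratio of Col1a1 to Col1a2 per length was 1.30, 1.10, 1.66 and 1.12 in ApoE-/- mice and 0.991, 0.815, 1.02 and 0.937 in WT mice, with no overlap, and it was not tested. With the longest transcripts as lengths the mouse-to-mouse pattern was the same by construction, at 0.525 to 0.789 in ApoE-/- mice and 0.388 to 0.485 in WT mice. The annotated gene Gm43921 overlaps Col1a2 on the same strand. The ratio of Col5a1 to Col5a2 was 0.877 to 1.57 in ApoE-/- mice and 1.39 to 1.71 in WT mice, and that of Col3a1 to Col1a1 was 1.00 to 1.64 and 1.07 to 1.28.

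Type IV chains come in gene pairs that lie head to head and share a promoter region. Col4a1 and Col4a2, the chains of nearly every basement membrane, lie on chromosome 8 on opposite strands (11198423 to 11312826 and 11312805 to 11449287). Col4a1 was at 933, 1522, 1794 and 1400 CPM in ApoE-/- mice and 1219, 968, 1318 and 1184 CPM in WT mice, with a log2 fold change of 0.27 and an SE of 0.23. Col4a2 was at 577, 941, 1250 and 805 CPM against 791, 585, 885 and 721 CPM, with a log2 fold change of 0.26 and an SE of 0.26. Their ratio per length stayed between 1.27 and 1.54 in the 8 mice, a 1.21-fold span, while the levels spanned 1.92-fold and 2.17-fold. The genotypes overlapped for both chains and for their ratio. Without ApoE-/- replicate 1 the log2 fold changes of Col4a1 and Col4a2 were 0.43 and 0.42, with edgeR adjusted p of 0.240 and 0.334, and the median over the 6 type IV chains was 0.42.

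Col4a5 and Col4a6, on chromosome X, encode chains of the smooth muscle basement membrane. Col4a5 was at 93.9, 406, 392 and 245 CPM in ApoE-/- mice and 239, 231, 317 and 190 CPM in WT mice. Col4a6 was at 56.7, 240, 269 and 119 CPM against 158, 156, 195 and 121 CPM. The log2 fold changes of Col4a5 and Col4a6 were 0.22 and 0.12 (edgeR adjusted p of 0.902 and 0.958), and 0.51 and 0.41 without ApoE-/- replicate 1 (0.283 and 0.503). Both were lowest in that mouse, and their ratio spanned only 1.41-fold while the levels spanned 4.33-fold and 4.75-fold. Col4a3 and Col4a4, on chromosome 1, are best known from the kidney filter. Col4a3 was at 12.4, 52.0, 43.2 and 32.8 CPM in ApoE-/- mice and 30.8, 37.8, 45.0 and 34.0 CPM in WT mice. Col4a4 was at 27.3, 85.3, 74.4 and 48.3 CPM against 54.1, 66.8, 77.9 and 55.1 CPM. Their log2 fold changes were -0.07 and -0.11 with all mice, and 0.21 and 0.13 without ApoE-/- replicate 1, with edgeR adjusted p of 0.626 and 0.825. None of the 6 type IV chains passed the test in any of these fits.

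Col16a1 and Col20a1, named above as separated upward, are FACIT chains. Col16a1, the chain of type XVI collagen, was at 73.8, 65.3, 89.3 and 60.1 CPM in ApoE-/- mice and 51.0, 53.9, 57.6 and 49.9 CPM in WT mice, a narrow gap but without overlap. For Col16a1 the log2 fold change was 0.44 with an SE of 0.13, and the adjusted p was 0.210 in edgeR (0.159 without ApoE-/- replicate 1) and 0.110 in DESeq2. Col20a1 was at 39.8, 24.6, 18.6 and 23.4 CPM against 13.6, 12.1, 18.1 and 17.0 CPM, and ApoE-/- replicate 3 was only just above WT replicate 3. The fold change of Col20a1 on the log2 scale was 0.81 with an SE of 0.25 and an edgeR adjusted p of 0.215, and without ApoE-/- replicate 1 these were 0.55 and 0.133. The gene BX649560.1 overlaps it on the same strand. Col14a1, which binds fibrils and regulates their assembly, had the highest level of the class. It was at 274, 487, 510 and 610 CPM in ApoE-/- mice and 255, 315, 259 and 291 CPM in WT mice, with replicate 1 again among the WT values. The log2 fold change of Col14a1 was 0.75 (edgeR adjusted p = 0.234), and 0.94 without that mouse (edgeR adjusted p = 0.0126). Fibroblast markers, which mark a cell type that makes Col14a1, summed to 4082 to 9294 CPM in ApoE-/- mice and 4709 to 6126 CPM in WT mice, highest in ApoE-/- replicate 4 as for Col14a1, and their part in the result was not tested. Col12a1 and Col22a1 were at 76.9 to 188 CPM and 0.528 to 1.13 CPM in ApoE-/- mice and overlapped the WT values.

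Of the type VI chains, Col6a1, Col6a2 and Col6a3 varied together. Col6a3, the most abundant by counts, was at 360, 839, 1436 and 732 CPM in ApoE-/- mice and 511, 440, 566 and 393 CPM in WT mice. ApoE-/- replicate 1 was the lowest of all libraries and the other 3 ApoE-/- mice were the highest. With all mice the log2 fold changes were 0.61 for Col6a1, 0.55 for Col6a2 and 0.82 for Col6a3, with edgeR adjusted p of 0.532, 0.665 and 0.479. Leaving out ApoE-/- replicate 1 gave 0.84, 0.79 and 1.07, with edgeR adjusted p of 0.0617, 0.127 and 0.0637, so none passed in edgeR. DESeq2 called all 3 in the fit without that mouse, with adjusted p of 0.00191, 0.0272 and 0.00129, and none of them with all mice. Over single mice left out, the lowest log2 fold changes of Col6a1, Col6a2 and Col6a3 were 0.32, 0.20 and 0.43. The ratio of Col6a1 to Col6a2 per length spanned 1.38-fold in the 8 mice. Col6a4, Col6a5 and Col6a6 were lower, at 0.787 to 52.2 CPM.

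Among the remaining chains, Col8a1, a short-chain collagen of the vessel wall, was at 69.7, 105, 223 and 160 CPM in ApoE-/- mice and 75.9, 105, 105 and 102 CPM in WT mice, with a log2 fold change of 0.52 and an SE of 0.33, or 0.75 without ApoE-/- replicate 1 (edgeR adjusted p = 0.147). Over single mice left out, the lowest log2 fold change of Col8a1 was 0.20. Col18a1, whose end piece is the angiogenesis inhibitor endostatin, was at 322, 1092, 1274 and 659 CPM against 815, 632, 1092 and 571 CPM. Its log2 fold change was 0.11 with an SE of 0.42, and 0.38 without ApoE-/- replicate 1 (edgeR adjusted p = 0.577), and the groups overlapped. Col23a1, a transmembrane collagen, was at 11.4, 14.4, 16.6 and 18.7 CPM against 11.5, 12.3, 10.3 and 10.1 CPM. This gave a log2 fold change of 0.47 with an SE of 0.17, and its edgeR adjusted p was 0.302, or 0.0555 without ApoE-/- replicate 1 (0.00749 in DESeq2). Col15a1, Col7a1, Col17a1 and Col8a2 overlapped between genotypes and had log2 fold changes of 0.45, 0.10, 0.28 and -0.28. Col9a1, Col25a1 and Col26a1 did not pass the low-count filter, with at most 31, 20 and 30 read pairs in any library.

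Several chains varied from mouse to mouse in an order much like that of cell markers. Col28a1, a collagen found around glial cells of peripheral nerves, was at 104, 8.40, 13.5 and 10.2 CPM in ApoE-/- replicates 1 to 4 and 22.8, 38.5, 19 and 32.9 CPM in WT mice. Replicate 1 was far above and the other 3 ApoE-/- mice were below every WT mouse. The log2 fold change of Col28a1 was 0.26 with an SE of 0.81 for all mice, and -1.40 with an SE of 0.28 without ApoE-/- replicate 1 (edgeR adjusted p = 0.0394). The sympathetic neuron markers summed to 4060, 30.7, 298 and 70.1 CPM in ApoE-/- mice and 391, 711, 191 and 513 CPM in WT mice. The 8 Schwann cell markers (the glia of peripheral nerve) summed to 1213, 257, 372 and 320 CPM and 536, 903, 456 and 694 CPM. The 8 mice had the same order for Col28a1 as for the Schwann cell sum. Col11a1 was at 27.0, 2.36, 14.2 and 2.99 CPM in ApoE-/- mice and 10.6, 21.3, 9.36 and 16.7 CPM in WT mice, nearly in the order of the neuron sum. Its log2 fold change was -0.32 with all mice and -1.15 without ApoE-/- replicate 1, with edgeR adjusted p of 0.929 and 0.393. The part of nerve tissue on the aortas in these values was not tested.

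The order of the mice for Col19a1, a FACIT chain, resembled that of the smooth muscle markers, and this chain was picked after its values were seen. Col19a1 was at 12.7, 66.0, 53.5 and 24.3 CPM in ApoE-/- mice and 38.7, 36.5, 58.9 and 30.3 CPM in WT mice. The smooth muscle markers summed to 5688, 23066, 22126 and 13987 CPM in ApoE-/- mice and 17626, 17711, 23293 and 12560 CPM in WT mice. Both were lowest in ApoE-/- replicate 1, as were Col18a1, Col4a3, Col4a4, Col4a5 and Col4a6. This was not particular to these chains. Col1a2, Col4a1, Col4a2, Col5a1, Col6a1, Col6a2, Col6a3, Col6a6, Col8a1, Col8a2 and Col10a1 were also lowest there. The part of smooth muscle content in these chains was not tested.

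**Figure D4:**
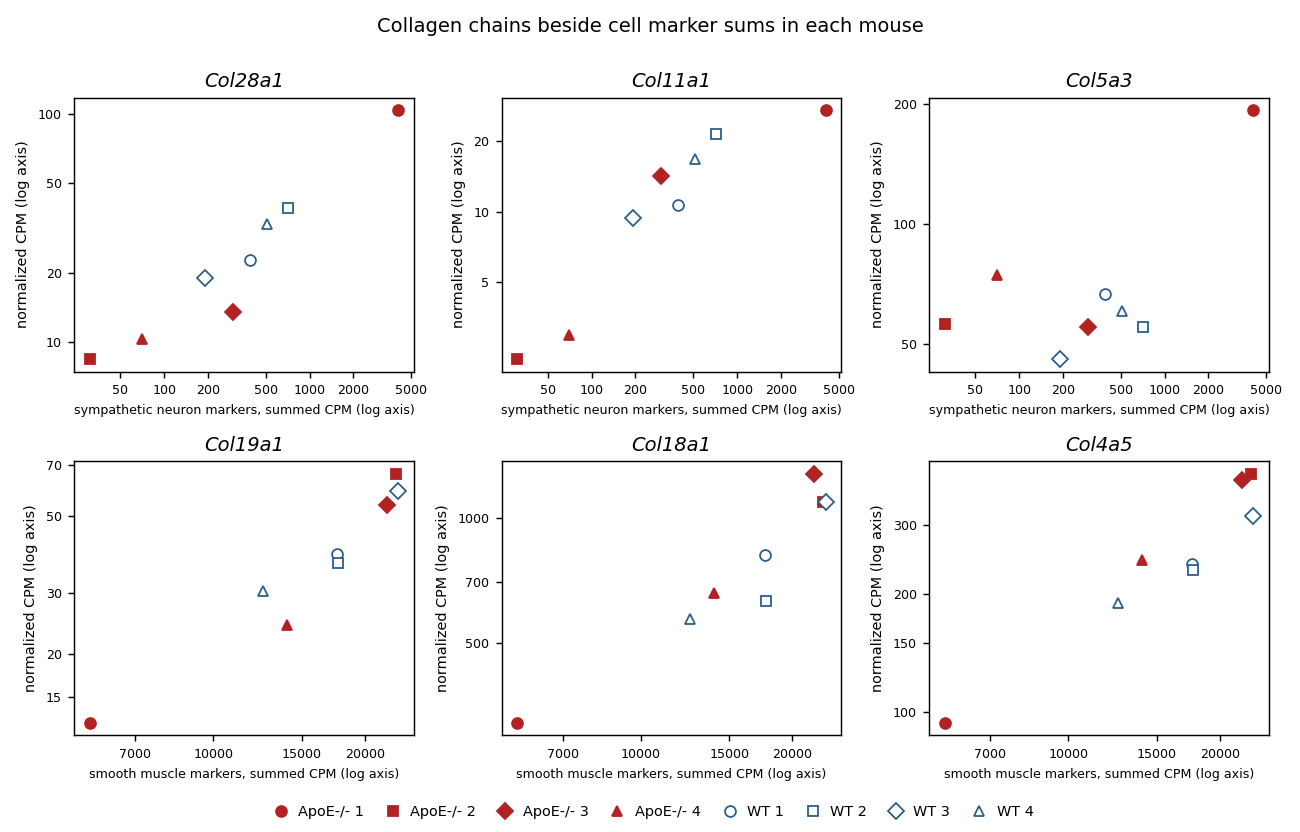
Normalized CPM of 6 collagen chains (y axes, log scale) in each mouse against the summed CPM (x axes, log scale) of sympathetic neuron markers (top row) and smooth muscle markers (bottom row), filled for ApoE-/- and open for WT. Col28a1 and Col11a1 are high where the neuron sum is high in both genotypes, Col5a3 is high in ApoE-/- replicate 1 (193 CPM), and Col19a1, Col18a1 and Col4a5 are lowest in that mouse, where the smooth muscle sum is 5688 CPM.

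The cartilage-associated chains were marked by ApoE-/- replicate 3. Col2a1, the chain of type II collagen and the main fibril of cartilage, was at 1.10, 0.394, 240 and 1.87 CPM in ApoE-/- mice and 0.597, 0.421, 0.388 and 1.05 CPM in WT mice. This is 5513 read pairs in ApoE-/- replicate 3 and 7 to 43 in each of the other 7 libraries. Its log2 fold change was 6.61 with an SE of 2.22 (edgeR adjusted p = 0.269), and 0.87 without ApoE-/- replicates 1 and 3 (edgeR adjusted p = 0.562). Col11a2, which joins type II fibrils, was at 6.90, 8.44, 50.7 and 5.16 CPM against 5.14, 5.29, 6.37 and 8.57 CPM. Col9a3, a FACIT chain of type II fibrils, was at 0.974, 1.09, 5.66 and 1.09 CPM against 1.24, 1.08, 1.16 and 1.53 CPM. Col9a2, another chain of the same collagen, was at 2.27, 0.306, 1.48 and 0.217 CPM against 0.505, 0.702, 0.332 and 0.527 CPM and was highest in ApoE-/- replicate 1. The log2 fold change of Col9a2 was 1.04 with all mice and 0.36 without that replicate (edgeR adjusted p of 0.713 and 0.848), and that of Col9a3 was 0.81 and 1.06 (0.742 and 0.402). For Col11a2 it was 1.49 and 1.76 (0.525 and 0.241). The lowest value of Col11a2 over single mice left out was 0.11, and without ApoE-/- replicates 1 and 3 it was 0.10 (edgeR adjusted p = 0.908). Col10a1, known from the growth plate, was at 6.53, 9.75, 11.1 and 7.16 CPM against 7.71, 7.82, 11.4 and 7.66 CPM, with a log2 fold change of -0.0014 and an SE of 0.22. Over the 7 tested cartilage chains the median log2 fold change was 0.81 with all mice, -0.15 without ApoE-/- replicate 3, and 0.05 over all tested genes.

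Cartilage markers bore on the same mouse. Acan, the cartilage proteoglycan aggrecan, was at 123 CPM in ApoE-/- replicate 3 and 3.90 to 23.9 CPM in the other 7 mice, and Sox9, the transcription factor of cartilage cells, at 16.1 CPM and 1.22 to 3.28 CPM. Comp was at 89.4 CPM against 27.5 to 64.1 CPM, Hapln1 at 13.5 against 5.03 to 12.2 CPM, Chad at 5.01 against 2.04 to 3.40 CPM and Snorc at 1.26 against 0.130 to 0.964 CPM. In all, 7 of the 12 cartilage markers were highest in ApoE-/- replicate 3, counting Ucma at 0.131 CPM. The other 5 (Cytl1, Cnmd, Epyc, Matn3 and Matn1) were highest in other mice, and Ucma and Matn1 had 0.131 CPM or less in every library. The sum over the 12 cartilage markers was 84.3 to 421 CPM in ApoE-/- mice, highest in replicate 3, and 194 to 305 CPM in WT mice. Of the 8 bone markers, Ibsp was at 22.0 CPM in ApoE-/- replicate 3 and 0.203 to 7.77 CPM in the others, and Alpl, Runx2 and Sp7 were also highest there. Spp1 was highest in ApoE-/- replicate 4 (1526 CPM against 1232 CPM in replicate 3), and Phex and Dmp1 in replicate 2. The bone sum was 273, 688, 1304 and 1570 CPM in ApoE-/- mice and 37.6 to 116 CPM in WT mice, most of it Spp1. The part of cartilage-like tissue in these values was not tested.

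**Figure D5:**
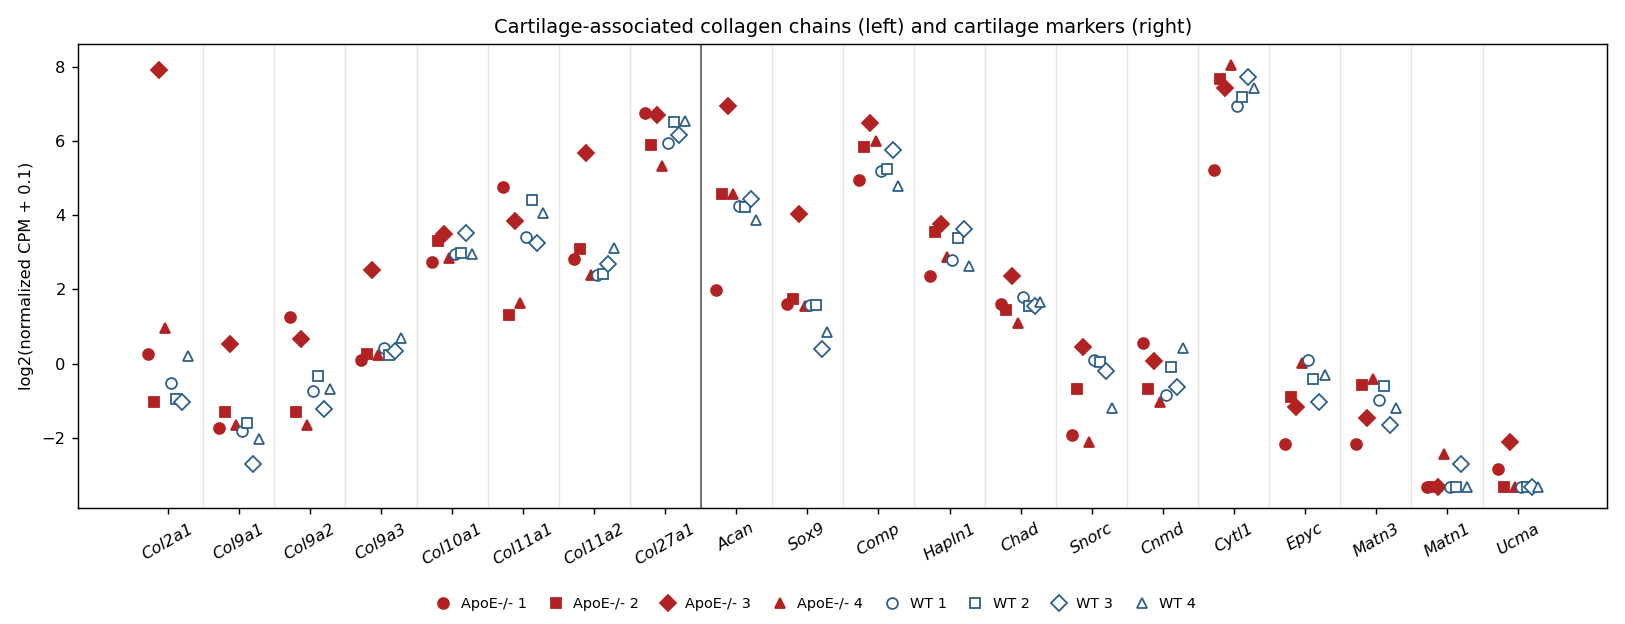
Levels of the 8 cartilage-associated collagen chains (left of the line) and of the 12 cartilage markers (right) in each mouse, as log2 of normalized CPM plus 0.1 (y axis), filled for ApoE-/- and open for WT. ApoE-/- replicate 3 (filled diamond) is highest of all mice for Col2a1, Col9a1, Col9a3, Col11a2 and 7 of the markers, Acan and Sox9 among them, while Matn1 and Ucma are near 0 CPM throughout.

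The genes that modify, secrete, cross-link, bind and degrade collagen were described as 7 lists. The 15 genes of prolyl and lysyl modification, which hydroxylate and glycosylate the chains, gave no call in edgeR, and their median log2 fold change was 0.26. The smallest p there belonged to P4ha3, a prolyl 4-hydroxylase subunit, at 2.68, 1.40, 3.35 and 2.52 CPM in ApoE-/- mice and 1.06, 0.983, 0.886 and 0.574 CPM in WT mice. P4ha3 had a log2 fold change of 1.5, an edgeR adjusted p of 0.0865 and a DESeq2 adjusted p of 0.00388. Plod3, a lysyl hydroxylase, followed with 0.21 and an edgeR adjusted p of 0.418. Of the 11 chaperone and secretion genes none was called, and the median was 0.25. Fkbp14, a prolyl isomerase, and Creb3l1, a transcription factor of collagen secretion, came first, with log2 fold changes of 0.28 and 0.60 and edgeR adjusted p of 0.219 and 0.437. Of 10 genes of propeptide cleavage 8 were tested and none called, with Pcolce, an enhancer of the procollagen C-proteinase, first at 0.54 (edgeR adjusted p = 0.366) and Bmp1, that proteinase, next at 0.40 (edgeR adjusted p = 0.493). Without ApoE-/- replicate 1 edgeR called 2 of these 8 higher, against 2.75% of genes. They were Pcolce, at 0.70 (adjusted p = 0.0482), and Adamts2, a procollagen N-proteinase, at 0.73 (adjusted p = 0.0113), while no gene of the modification and chaperone lists was called in that fit.

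The 5 lysyl oxidases cross-link collagen and elastin. All 5 had positive log2 fold changes, as did 58.0% of all tested genes, with a median of 0.53, and none was called in edgeR. Loxl2 was at 24.6, 41, 65.3 and 47.3 CPM in ApoE-/- mice and 22.5, 18.9, 21 and 20.6 CPM in WT mice, without overlap. Its log2 fold change was 1.10, with adjusted p of 0.113 in edgeR and 0.00729 in DESeq2, a call that DESeq2 kept in 6 of the 8 fits without a single mouse. Lox was at 63.1, 256, 285 and 252 CPM against 97.8, 78.7, 136 and 96.7 CPM, so ApoE-/- replicate 1 was the lowest of all mice. The log2 fold change of Lox was 1.07 (edgeR adjusted p = 0.377), and 1.37 without that mouse. In that fit edgeR called 3 of the 5 higher, Loxl2, Lox and Loxl1 (adjusted p of 0.00871, 0.00907 and 0.0407), against 2.75% of genes.

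Among 13 fibril-binding proteoglycans and glycoproteins, 12 were tested and none was called in edgeR, with a median of 0.39. Lum, the proteoglycan lumican that spaces collagen fibrils, was at 226, 372, 797 and 767 CPM in ApoE-/- mice and 88.7, 118, 111 and 109 CPM in WT mice, without overlap. This gene had a log2 fold change of 2.34 with an SE of 0.40, and its adjusted p was 0.0526 in edgeR (0.00621 without ApoE-/- replicate 1) and 5.95e-07 in DESeq2. Lum is also one of the fibroblast markers. Fn1, fibronectin, was at 1928, 6457, 11981 and 6046 CPM against 3371, 2685, 4248 and 2792 CPM, with an edgeR adjusted p of 0.517, or 0.0591 without ApoE-/- replicate 1. In that fit Thbs2, a matrix glycoprotein, was called beside Lum, at a log2 fold change of 0.73 (edgeR adjusted p = 0.0192). Of 12 collagen receptors 11 were tested and 1 rose, against 0.371% of genes. Lair1, an inhibitory receptor of leukocytes that binds collagen, was at 9.09, 9.14, 16.6 and 21.4 CPM in ApoE-/- mice and 3.21, 3.56, 2.16 and 2.30 CPM in WT mice. For Lair1 the log2 fold change was 2.32 with an SE of 0.34 (edgeR adjusted p = 0.0396). This call held in 1 of the 8 edgeR fits without a single mouse, the one without ApoE-/- replicate 1, and the adjusted p ranged from 0.00871 to 0.169, while DESeq2 called Lair1 in all 8. In the other such edgeR fits only 0 to 17 of all tested genes were called. Itga11, an integrin subunit that binds fibrillar collagen, followed at 0.90 with an edgeR adjusted p of 0.206. In edgeR without ApoE-/- replicate 1, 3 receptors were called higher and 1 lower, against 2.75% and 1.16% of genes. Beside Lair1 these were Itga11 at 1.10 (adjusted p = 0.0147), Mrc2, an endocytic receptor for collagen, at 0.95 (adjusted p = 0.0241), and Adgrg1, an adhesion receptor that binds type III collagen, at -0.63 (adjusted p = 0.0493).

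Collagenolytic proteases had the highest median of the 7 lists, 1.08 over 7 tested of 8 genes, all with positive values. In edgeR 1 rose, again against 0.371% of genes, and DESeq2 called 3 of the 7 higher (Mmp13, Mmp14 and Mmp2), against 2.84%. Mmp13, a collagenase, was at 2.80, 4.90, 6.14 and 23.7 CPM in ApoE-/- mice and 0.138, 0, 0.0554 and 0.191 CPM in WT mice. It passed the test (edgeR adjusted p = 0.0438), but of the 8 edgeR fits without a single mouse only the one without ApoE-/- replicate 1 kept the call, with adjusted p from 0.00871 to 0.171, while DESeq2 called it in all 8. The other such edgeR fits called only 0 to 17 of all tested genes. Of the WT libraries, 3 of 4 held 3 read pairs or fewer, so no fold is given. Mmp14, the membrane-bound activator of Mmp2, was at 55.4, 74.7, 99.0 and 102 CPM against 41.4, 33.5, 38.3 and 34.1 CPM, with adjusted p of 0.0526 in edgeR and 4.82e-05 in DESeq2. Mmp2, a gelatinase, was at 136, 161, 214 and 276 CPM against 89.6, 83.6, 83.0 and 91.3 CPM, with a log2 fold change of 1.18 and adjusted p of 0.0597 in edgeR and 9.29e-05 in DESeq2, which called it in all 8 fits without a single mouse. Without ApoE-/- replicate 1 edgeR called both, with adjusted p of 0.00621 for Mmp14 and 0.00871 for Mmp2. Both were separated by genotype, with ApoE-/- replicate 1 lowest of its group. Mmp8, a neutrophil collagenase, did not pass the low-count filter of edgeR, but DESeq2 called it (adjusted p = 0.0263), a call kept in 2 of the 8 fits without a single mouse. It was at 0.122, 0.306, 1.05 and 1.61 CPM in ApoE-/- mice, and all 4 WT libraries held 3 read pairs or fewer. This gene was picked after its values were seen. In ApoE-/- mice the macrophage markers, which were measured beside these genes, summed to 537, 1056, 1405 and 2739 CPM, the same order of mice as for Lair1, Mmp13, Mmp14 and Mmp2. All 12 macrophage markers were separated upward (5.41% of genes) and DESeq2 called 9 of them higher (2.84% of genes), and their part in these values was not tested.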

How the data were processed

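Each of the 8 libraries has 1 file of raw counts of read pairs per gene, which the authors deposited without normalization. The libraries were stranded, ribodepleted total RNA sequenced as paired 50-base reads. The submitters' processing notes name TopHat2, HTSeq and the builds GRCm38 and mm10, and versions and annotation are not given in the sources used here. The names of the deposited files mark the counts as unique and stranded. Rows that name no gene held 64.4% to 72.1% of pairs and were left out. Of 21859 gene identifiers 21817 matched GENCODE M21 (GRCm38), which gave positions and lengths, and 42 did not.

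The members and all lists were chosen with earlier results of these data known. In R 4.3.3, edgeR 4.0.16 kept 15077 genes (filterByExpr), scaled them by TMM and compared genotypes with the robust quasi-likelihood F test, two-sided, with Benjamini-Hochberg adjustment over all tested genes and a threshold of 0.05. The SE is the log2 fold change divided by the square root of F. Alternatives were DESeq2 1.42.0, limma-voom (limma 3.58.1), other scalings and filters, no robust fit, a replicate block and fits without single mice. Chains were given in every mouse if past the threshold in edgeR or DESeq2, separated by genotype, the most abundant of a class, on the cartilage list and past the count filter, or in a type IV pair, and from each of the 7 other lists the genes past the threshold in edgeR and the 2 with the smallest p. The tests were also run on counts simulated independently for each gene. These held no library that stands apart, so they cannot show how such a library affects the calls.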

Additional observations from a re-analysis of the deposited data

Results flagged for a closer look

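Values were looked at again where 1 of the 4 mice of a genotype lay far from the other 3, by the gap to the nearest mouse divided by the whole range, against Dixon's limit for groups of 4. Of 128 groups of values 13 passed the limit, where chance flags about 1 in 20, or 6.4.

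In ApoE-/- replicate 3 the gap was 0.9939 of the range for Col2a1 (240 CPM), 0.9746 for Col9a3 (5.66 CPM) and 0.9281 for Col11a2 (50.7 CPM), each of them high. In ApoE-/- replicate 1 it was 0.947 for Col28a1 (104 CPM) and 0.859 for Col5a3 (193 CPM), both high, and 0.9936 for the share of collagen counts on Col7a1, Col26a1 and Col28a1 together (1.44%). In the same mouse it was 0.9338 for the sum of sympathetic neuron markers, 0.8793 for Schwann cell markers (1213 CPM) and 0.8596 for airway and lung markers, which were low in all mice (4.79 CPM here). The cardiac muscle sum of ApoE-/- replicate 4 was low (160 CPM), with a gap of 0.9455. Among WT mice, Col6a5 was high in replicate 4 (39.4 CPM, gap 0.9136), Col10a1 was high in replicate 3 (11.4 CPM, gap 0.958) and Col8a1 was low in replicate 1 (75.9 CPM, gap 0.8943).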

How the results depend on the processing

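The count of called chains was 0 with all 8 mice in edgeR and 2 in DESeq2. It ranged from 0 to 7 over single mice left out in edgeR (7 without ApoE-/- replicate 1) and from 1 to 12 in DESeq2 (12 without ApoE-/- replicate 1, where 9.18% of genes were called, and 1 to 3 without any other mouse, where 2.65% to 4.14% were), and was 6 without ApoE-/- replicates 1 and 3 together, which was tried after seeing the data. Leaving out any single mouse but ApoE-/- replicate 1, edgeR called only 0 to 17 of all tested genes. The count of separated chains ranged from 4 to 15. With all mice 5.41% of all tested genes were separated upward and 3.30% downward. Without ApoE-/- replicate 1, 13 chains were separated upward and 2 downward, against 9.87% and 7.39% of genes. With single mice left out, class medians ranged from 0.50 to 0.99 (fibrillar), 0.31 to 0.70 (type VI, lowest without ApoE-/- replicate 3), -0.0019 to 0.48 (multiplexin), -0.15 to 0.16 (short-chain), 0.28 to 0.66 (FACIT), -0.64 to 0.37 (other chains), -0.081 to 0.42 (type IV, also -0.030 in limma-voom and -0.014 with the replicate block), -0.058 to 0.44 (transmembrane) and -0.15 to 1.04 (cartilage). The replicate numbers did not pair the mice, since same-numbered deviations correlated at 0.0593, -0.448, 0.3161 and 0.1617 and 1 of 8 libraries correlated best with its own number. Among the 23 chains given in every mouse by rule, log2 fold changes that changed sign were, with the replicate block, -0.086 (Col4a6), -0.014 (Col18a1) and -0.66 (Col28a1), and with limma-voom -0.10, -0.030 and -0.54 for the same chains. The replicate block left 0 chains and 2 genes called. Without ApoE-/- replicates 1 and 3 they were -0.98 (Col9a2), -0.20 (Col9a3), 0.20 (Col4a3), 0.075 (Col4a4) and -1.60 (Col28a1). Over single mice left out the sign turned for Col9a3 (-0.25 to 1.06), Col4a3 (-0.32 to 0.21), Col4a4 (-0.34 to 0.13), Col4a5 (-0.0020 to 0.51), Col4a6 (-0.19 to 0.41), Col11a1 (-1.15 to 0.022), Col27a1 (-0.23 to 0.18), Col10a1 (-0.15 to 0.16), Col18a1 (-0.17 to 0.38) and Col28a1 (-1.40 to 0.59), and the cause was not tested. Of the 18 other tested chains 7 turned sign in some fit, Col19a1 (-0.45 to 0.23), Col24a1 (-0.43 to 0.39), Col6a6 (-0.16 to 0.41), Col17a1 (-0.058 to 0.48), Col22a1 (-0.047 to 0.39) and Col7a1 (-0.018 to 0.31) over single mice left out, and without ApoE-/- replicates 1 and 3 Col19a1 (0.14), Col24a1 (-0.93), Col7a1 (-0.00091) and Col8a2 (0.047). Col24a1 also turned with the replicate block (-0.15) and limma-voom (-0.21). Lengths from the longest transcript gave mean ratios of 0.532 (Col1a1 to Col1a2), 2.04 (Col3a1 to Col1a1), 1.55 (Col4a1 to Col4a2), 0.687 (Col4a3 to Col4a4), 1.66 (Col4a5 to Col4a6), 1.38 (Col6a1 to Col6a2) and 0.967 (Col5a1 to Col5a2).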
